A study of Rattus norvegicus with 30 samples.

Results

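Enzymes of carbonyl and epoxide detoxification were followed in primary rat hepatocytes exposed to beta-naphthoflavone (BNF), a synthetic flavonoid that binds the aryl hydrocarbon receptor (AhR). They were the aldo-keto reductase genes Akr1b8, Akr7a3 and Akr1c1, the aldehyde dehydrogenase gene Aldh3a1 and the microsomal epoxide hydrolase gene Ephx1. The members were named by symbol in the platform annotation and not by a cut on their values, though earlier results of these data were known. All 5 were found among the 14217 genes measured, each on 1 probe set. The hepatocytes came from male Sprague Dawley rats, were bought frozen and were cultured in 6-well plates, and chemical was added on the third day of culture. The groups were vehicle (DMSO, given as 1% in the labels), 1 µM BNF and 100 µM BNF, each harvested at 24 and at 48 h, with 5 wells and 5 Affymetrix arrays per group. All groups share the male donor sex, the strain and the culture. The sample titles name DMSO for the vehicle groups only. The labels call the wells independent cultures and name no animal for any well, so each p-value speaks for wells of the same purchased cells, not for rats.

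Aldo-keto reductases use NADPH to reduce aldehydes and ketones to alcohols, aldehyde dehydrogenases oxidise aldehydes to acids, and microsomal epoxide hydrolase adds water to epoxides, among them those that cytochromes P450 form from aromatic hydrocarbons. Aldh3a1 is a classical member of the AhR gene battery, which ligand-bound AhR and its partner ARNT switch on through DNA elements with the core GCGTG. Genes that answer to electrophiles and oxidants, among them rat Akr7a3 and Ephx1, are known targets of NRF2, which binds the antioxidant response element TGACNNNGC.

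Promoter windows are shown so that the letters near the start can be read beside the responses of Akr1b8, Akr7a3 and Ephx1, given the known elements of AhR and NRF2. The 250 bases before the start of transcription were read from RefSeq (build GRCr8) for 3 of the 5 members, 5′ to 3′ on the gene's strand, and capitals mark the motif match. Akr1b8 lies at chr4:63964171-63964420 on the plus strand, Akr7a3 at chr5:156876471-156876720 on the plus strand, and the window of the second Ephx1 start at chr13:95263118-95263367 on the minus strand.
Akr1b8: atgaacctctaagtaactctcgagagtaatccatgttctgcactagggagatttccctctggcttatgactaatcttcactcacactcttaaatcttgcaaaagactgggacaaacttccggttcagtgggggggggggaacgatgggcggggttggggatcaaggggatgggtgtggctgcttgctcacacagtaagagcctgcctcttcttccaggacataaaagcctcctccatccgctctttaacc
Akr7a3: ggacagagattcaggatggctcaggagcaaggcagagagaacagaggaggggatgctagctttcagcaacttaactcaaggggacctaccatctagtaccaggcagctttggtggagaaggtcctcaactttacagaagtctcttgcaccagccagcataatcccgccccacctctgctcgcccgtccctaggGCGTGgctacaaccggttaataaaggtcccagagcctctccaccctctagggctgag
Ephx1, second start: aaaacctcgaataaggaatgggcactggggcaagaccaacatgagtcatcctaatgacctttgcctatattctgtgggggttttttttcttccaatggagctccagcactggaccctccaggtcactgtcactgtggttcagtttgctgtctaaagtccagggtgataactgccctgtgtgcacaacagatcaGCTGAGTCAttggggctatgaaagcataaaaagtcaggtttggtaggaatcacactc
The Akr7a3 window held GCGTG on the gene's strand, 57 to 53 bases before the start. The second Ephx1 window held TGACNNNGC on the opposite strand, 57 to 49 bases before the start. The Akr1b8 window and that of the other Ephx1 start (chr13:95275853-95276102, minus strand) held neither motif on either strand. Of 33469 rat promoter windows of 250 bases, 25.9% held GCGTG and 10.1% held TGACNNNGC on at least 1 strand, so a match is a description of these letters and not a site. No window was printed for Akr1c1 and Aldh3a1.

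Values are deposited MAS5 signals on a linear scale in arbitrary units, and each array had been scaled to the same trimmed mean. Tests used limma on log2 signals of all 14217 genes, with Benjamini-Hochberg adjustment over all of them in each of 9 comparisons, and a gene was called at an adjusted p below 0.05. The spread between wells differed among the members. The pooled within-group SD on the log2 scale was 0.12 for Akr1b8, 0.09 for Akr7a3 and 0.13 for Ephx1, below the median of 0.22 over all genes. It was 0.55 for Akr1c1 and 0.60 for Aldh3a1, above that median. For Akr1c1 the value rested on the 100 µM wells at 48 h, whose SD was 1.28 with 1 well at 42.39. Its other groups had SDs of 0.10 to 0.22. In RNA pooled from a whole well, fewer cells of a type and less RNA per cell cannot be told apart. The 9 measured hepatocyte markers, albumin (Alb) and transthyretin (Ttr) among them, ranked at or above the 88.7th percentile of all genes by mean signal. The 49 measured markers of other liver and immune cell types had a median percentile of 26.2. The lists overlapped, as Cd14 (93.2) and Epcam (91.8) ranked above the hepatocyte marker Hnf4a (88.7).

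Across the 5 members, 100 µM BNF at 48 h raised Akr1b8 and Akr7a3 and lowered Akr1c1, and at 24 h it raised Akr1b8, Akr7a3 and Aldh3a1 and lowered Akr1c1. At 1 µM, Akr1b8 rose at both times and Aldh3a1 rose at 24 h. Ephx1 was called in none of the 9 comparisons by limma, and its unadjusted p was below 0.05 in 2 of them, both between the doses (0.0316 at 48 h and 0.0192 at 24 h). At 100 µM and 48 h, 2 of 5 members were higher, where 8.79% of all genes were, and 1 was lower, where 8.62% were. At 24 h the same dose had 3 members higher and 1 lower, where the shares over all genes were 10.7% and 10.4%. The 1 µM dose had 1 member higher and 0 lower at 48 h, where the shares were 0.288% and 0.521%, and 2 higher and 0 lower at 24 h, where they were 1.91% and 2.40%. In either direction, the calls over all genes came to 17.4% at 100 µM and 48 h, 21.1% at 100 µM and 24 h, 0.809% at 1 µM and 48 h and 4.30% at 1 µM and 24 h. The 2 doses at a time share the same vehicle arrays. With 5 genes chosen by name while earlier results of these data were known, these counts describe the members and no test was put on them.

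**Figure D1:**
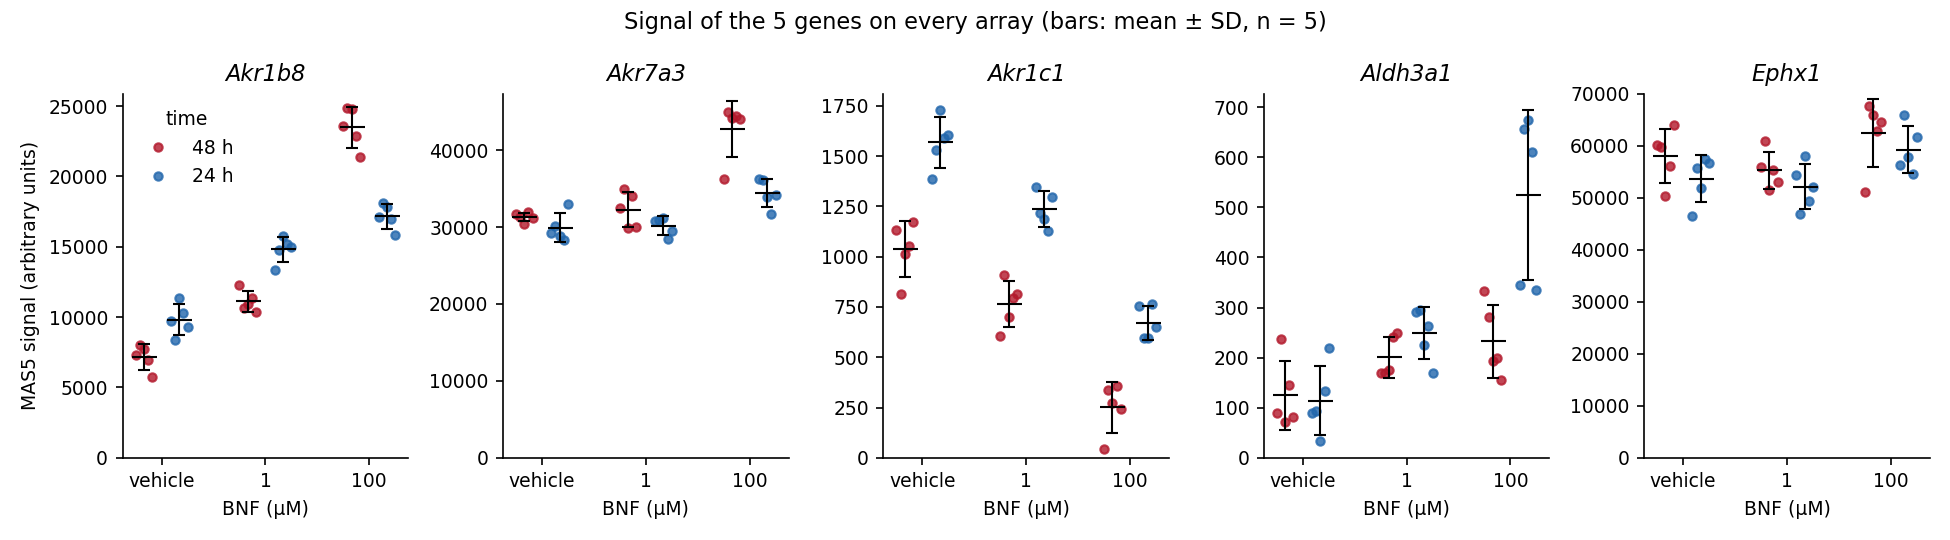
MAS5 signal (y axis, arbitrary units, linear) of each of the 5 genes against BNF dose (x axis, µM), with 48 h in red left of 24 h in blue; points are wells and bars are mean ± SD of 5 wells. Akr1b8 reached 23498 at 100 µM and 48 h, Akr1c1 fell to 250.6 there, Aldh3a1 was highest at 100 µM and 24 h (524.6), and the Ephx1 groups overlapped.

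Akr1b8, a reductase of aliphatic and aromatic aldehydes related to aldose reductase, was called in all 4 comparisons with vehicle. At 48 h its signal was 7320, 8041, 7749, 6988 and 5746 in the vehicle wells, 12317, 10666, 10918, 11376 and 10367 at 1 µM, and 23569, 24859, 24798, 22845 and 21419 at 100 µM. The 3 ranges did not overlap, and every well at a dose lay above every well at the dose below it. At 24 h the signal was 9718, 8402, 11378, 10297 and 9323 in the vehicle wells, 13386, 14740, 15743, 15226 and 14954 at 1 µM, and 17109, 18139, 17821, 16971 and 15823 at 100 µM. These ranges did not overlap either, although the highest well at 1 µM (15743) came close to the lowest at 100 µM (15823).

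The mean Akr1b8 signal at 48 h was 23498 ± 1440 at 100 µM, against 7169 ± 891.3 in vehicle wells (SD, n = 5 each), a 3.29-fold rise (log2 1.72, SE 0.07, limma adjusted p = 3.34e-17). The 1 µM mean at 48 h was 11129 ± 760.3, a rise of 1.56-fold over vehicle (limma adjusted p = 4.89e-06). At 24 h, 100 µM gave 17173 ± 897.3, against 9824 ± 1109 in vehicle wells, a rise of 1.76-fold (log2 0.81, limma adjusted p = 9.97e-10). The 1 µM mean at 24 h, 14810 ± 879.9, was a 1.51-fold rise over the same vehicle wells (limma adjusted p = 5.5e-06). The log2 effects of 1 µM differed between the times (48 h minus 24 h) by 0.04, with a 95% interval of -0.17 to 0.26 (limma adjusted p = 0.939). At 100 µM the effect was larger at 48 h, by 0.91 on the log2 scale (95% interval 0.69 to 1.12, limma adjusted p = 3.79e-06). Of all genes, 0.788% were called for this difference at 100 µM and 0.0914% for that at 1 µM, and of the members 1 and 0.

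Behind the time difference at 100 µM, Akr1b8 moved in opposite directions in vehicle and treated wells. The vehicle wells were lower at 48 h (7169) than at 24 h (9824), a change of -0.46 on the log2 scale (limma adjusted p = 3.3e-05), and Akr1b8 was the 1 member of 5 called in that comparison, where 17.2% of all genes were. Of the 49 markers of other cell types 2 were higher and 8 lower in the same comparison, and of the 9 hepatocyte markers 0 and 5. Of the 12 Kupffer cell and macrophage markers 0 were higher and 6 lower, with a median log2 change of -0.40. Of the 15 stellate cell and fibroblast markers 0 were higher and 1 lower, with a median of -0.21. The summed stellate cell and fibroblast signal ranged from 4834 to 6615 in vehicle wells at 48 h, against 7626 to 11325 at 24 h. Lox and Timp1 were the brightest of this list, with geometric mean signals of 1522 and 1256, so they weigh most in the sum. The part of these marker shifts in the Akr1b8 difference was not tested. The 100 µM wells were higher at 48 h (23498) than at 24 h (17173), and their ranges did not overlap. Between the doses, Akr1b8 at 100 µM was 2.11-fold higher than at 1 µM at 48 h (limma adjusted p = 3.73e-12). At 24 h the same ratio was 1.16-fold with a 95% interval of the log2 difference from 0.06 to 0.37 (limma adjusted p = 0.0791), which missed the threshold. In the order of mean levels Akr1b8 ran from 100 µM at 48 h through 100 µM at 24 h, 1 µM at 24 h, 1 µM at 48 h and vehicle at 24 h to vehicle at 48 h, and only 1 µM at 48 h and vehicle at 24 h overlapped as neighbours.

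Akr7a3 encodes the rat aflatoxin aldehyde reductase, which reduces the dialdehyde of aflatoxin B1 and is inducible by antioxidants in rat liver. At 48 h its signal was 31656, 31252, 30453, 31988 and 31160 in vehicle wells, 32435, 34928, 29869, 34026 and 30061 at 1 µM, and 36182, 44948, 44214, 44385 and 44022 at 100 µM. All 5 wells at 100 µM lay above every vehicle and 1 µM well, and replicate 1 stood apart below the other 4. At 24 h it was 29168, 30123, 28775, 28370 and 33051 in vehicle wells, 30840, 30964, 31227, 28419 and 29511 at 1 µM, and 36266, 36070, 33880, 31713 and 34136 at 100 µM. The 100 µM wells at 24 h overlapped the vehicle wells through 1 vehicle well (33051) but lay above all the 1 µM wells.

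The Akr7a3 mean at 48 h was 42750 ± 3688 at 100 µM, against 31302 ± 578.7 in vehicle wells (SD, n = 5 each), a 1.36-fold rise (log2 0.45, SE 0.06, limma adjusted p = 2.94e-07). At 24 h it was 34413 ± 1859 at 100 µM, against 29897 ± 1879 in vehicle wells, a 1.15-fold rise (log2 0.20, limma adjusted p = 0.00686). At 1 µM the log2 fold changes were 0.04 at 48 h (95% interval -0.07 to 0.15, limma adjusted p = 0.842) and 0.02 at 24 h (-0.10 to 0.13, limma adjusted p = 0.932). Akr7a3 was also higher at 100 µM than at 1 µM, 1.32-fold at 48 h (limma adjusted p = 2.59e-06) and 1.14-fold at 24 h (limma adjusted p = 0.0296). The call at 24 h was lost without any 1 of 5 wells (100 µM replicates 1, 2 and 5 and 1 µM replicates 4 and 5), with adjusted p of 0.0518 to 0.0836. The larger rise at 48 h was 0.24 on the log2 scale above that at 24 h (limma adjusted p = 0.155), and 0.30 (adjusted p = 0.0227) without replicate 1 of 100 µM and 48 h. Neighbours in the order of Akr7a3 levels overlapped throughout.

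Akr1c1 belongs to the subfamily of aldo-keto reductases that act on steroid hydroxyl and keto groups, and in the annotation it overlaps another gene of that subfamily, AKR1C3l1; whether the probe set separates them was not tested. Its signal ran against that of the other aldo-keto reductase members. At 48 h it was 1135, 814.2, 1011, 1055 and 1170 in vehicle wells, 606, 908.6, 700.2, 796.5 and 812.6 at 1 µM, and 42.39, 337.8, 274, 358.1 and 240.5 at 100 µM. Every 100 µM well lay below every vehicle and 1 µM well, and replicate 1 (42.39) lay far below the other 4. At 24 h the signal was 1384, 1531, 1727, 1590 and 1607 in vehicle wells, 1348, 1219, 1188, 1126 and 1299 at 1 µM, and 752.4, 594.6, 595.2, 766.9 and 648 at 100 µM. The 3 ranges at 24 h did not overlap.

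The Akr1c1 mean fell to 250.6 ± 125.7 at 100 µM and 48 h, against 1037 ± 139.8 in vehicle wells (SD, n = 5 each), 5.09-fold lower by the log2 means (log2 -2.35, SE 0.32, limma adjusted p = 1.34e-06). Without the 100 µM replicate 1 the log2 fold change was -1.78 (adjusted p = 1.4e-11). At 24 h the mean fell to 671.4 ± 83.59 at 100 µM, against 1568 ± 124.8 in vehicle wells, 2.34-fold lower (log2 -1.23, limma adjusted p = 0.00457). At 1 µM the mean was 764.8 ± 115.5 at 48 h (log2 -0.44 against vehicle, limma adjusted p = 0.638) and 1236 ± 88.41 at 24 h (log2 -0.34, limma adjusted p = 0.65). The 1 µM value at 24 h passed the threshold when only the vehicle and 1 µM wells of that time were fitted (adjusted p = 0.0443). In the order of Akr1c1 levels the vehicle wells at 24 h were highest and apart from the next group, the 100 µM wells at 48 h were lowest and apart, and the 4 groups between overlapped as neighbours.

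Between the doses, Akr1c1 at 100 µM and 48 h was 3.75-fold lower than at 1 µM (log2 -1.91, limma adjusted p = 5.75e-05), and the log2 difference was -1.34 (adjusted p = 1.18e-08) without replicate 1 of 100 µM. At 24 h the difference was -0.89 (limma adjusted p = 0.0897), and it passed with an adjusted p of 1.09e-05 when that replicate, which belongs to neither group, was left out of the fit. The same omission brought the lower Akr1c1 signal in vehicle wells at 48 h (1037, against 1568 at 24 h, log2 -0.60) past the threshold, with an adjusted p of 0.000598, against 0.219 with all 30 arrays. The difference of the 100 µM effects, 48 h minus 24 h, was -1.12 (limma adjusted p = 0.293) with all arrays and -0.56 (adjusted p = 0.159) without it.

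Aldh3a1 oxidises aromatic and medium-chain aldehydes and is nearly silent in untreated rat liver. At 48 h its signal was 89.28, 238.1, 72.11, 144.4 and 82.44 in vehicle wells, 168.7, 169.1, 174.8, 240.8 and 249.7 at 1 µM, and 333.5, 280.2, 193.7, 199 and 155.3 at 100 µM. The 3 ranges overlapped. At 24 h it was 90.34, 94.13, 32.89, 133.3 and 218.3 in vehicle wells, 291.9, 295.2, 224.5, 263.7 and 169.9 at 1 µM, and 345.6, 657.3, 674.3, 610.1 and 335.6 at 100 µM. The 100 µM wells at 24 h lay above all others of that time, and 3 of them stood well above the other 2.

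The Aldh3a1 mean at 24 h was 524.6 ± 169.6 at 100 µM, against 113.8 ± 68.53 in vehicle wells (SD, n = 5 each), a 5.21-fold rise by the log2 means (log2 2.38, SE 0.37, limma adjusted p = 1.15e-05). The probe set was dim, at the 23.1st percentile of all genes by mean signal. The log2 value of 2.38 became 1.86 with log2(signal + 50) and 2.00 without vehicle replicate 3 (32.89), and it passed in both. The 1 µM mean at 24 h was 249 ± 52.58, a 2.54-fold rise (log2 1.35, limma adjusted p = 0.0323). This call was lost without any 1 of 7 wells (vehicle replicates 1 to 3 and 1 µM replicates 1 to 4), with adjusted p of 0.0544 to 0.0978, and when only the vehicle and 1 µM wells of that time were fitted (adjusted p = 0.12). At 48 h the mean was 125.3 ± 69.02 in vehicle wells, 200.6 ± 40.93 at 1 µM and 232.3 ± 72.6 at 100 µM. Neither dose passed against vehicle, with log2 0.81 at 1 µM (limma adjusted p = 0.412) and 0.99 at 100 µM (limma adjusted p = 0.0643). Without vehicle replicate 2 the value at 100 µM and 48 h was 1.26 with an adjusted p of 0.0155. The 100 µM effect was lower at 48 h by -1.40 on the log2 scale (95% interval -2.46 to -0.33), which did not pass over all genes (unadjusted p = 0.0123, limma adjusted p = 0.253). Between the doses the ratio was 1.13-fold at 48 h (log2 interval -0.58 to 0.94, limma adjusted p = 0.832) and 2.05-fold at 24 h (limma adjusted p = 0.0895). Of the 6 groups, 100 µM at 24 h was highest and apart from the next, and the other neighbours overlapped.

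Ephx1 encodes microsomal epoxide hydrolase, and its probe set ranked at the 99.7th percentile of all genes by mean signal. Saturation flags were not used, so whether its signal met a ceiling was not tested. At 48 h it was 60077, 59729, 50241, 56007 and 64033 in vehicle wells, 55928, 60849, 51468, 55228 and 52986 at 1 µM, and 51172, 67536, 65953, 62758 and 64525 at 100 µM. At 24 h it was 46516, 55683, 51783, 57514 and 56739 in vehicle wells, 54309, 46835, 57968, 49346 and 51978 at 1 µM, and 56320, 65834, 57761, 54578 and 61686 at 100 µM. The ranges of all doses overlapped at both times. The mean at 48 h was 62389 ± 6514 at 100 µM, against 58017 ± 5193 in vehicle wells (SD, n = 5 each), a ratio of 1.07 with a log2 interval of -0.05 to 0.26 (limma adjusted p = 0.424). The mean at 24 h was 59236 ± 4525 at 100 µM, against 53647 ± 4554 in vehicle wells, a ratio of 1.10 with a log2 interval of -0.01 to 0.30 (limma adjusted p = 0.199).

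At 1 µM the Ephx1 log2 fold changes were -0.07 at 48 h (95% interval -0.22 to 0.09) and -0.04 at 24 h (-0.20 to 0.11). Between the doses, 100 µM was higher by 0.17 on the log2 scale at 48 h (interval 0.02 to 0.32, limma adjusted p = 0.149) and by 0.19 at 24 h (interval 0.03 to 0.34, limma adjusted p = 0.148), and neither passed. With quantile normalization in place of the deposited scaling, Ephx1 passed against vehicle at 100 µM, with log2 0.22 at 48 h (adjusted p = 3.2e-05) and 0.16 at 24 h (adjusted p = 0.000965), and between the doses (adjusted p = 0.000953 at 48 h and 0.00134 at 24 h). With median centring it passed between the doses at 48 h (adjusted p = 0.0361). Without replicate 1 of 100 µM and 48 h the log2 difference between the doses at 48 h was 0.24 and passed (adjusted p = 0.0214).

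**Figure D2:**
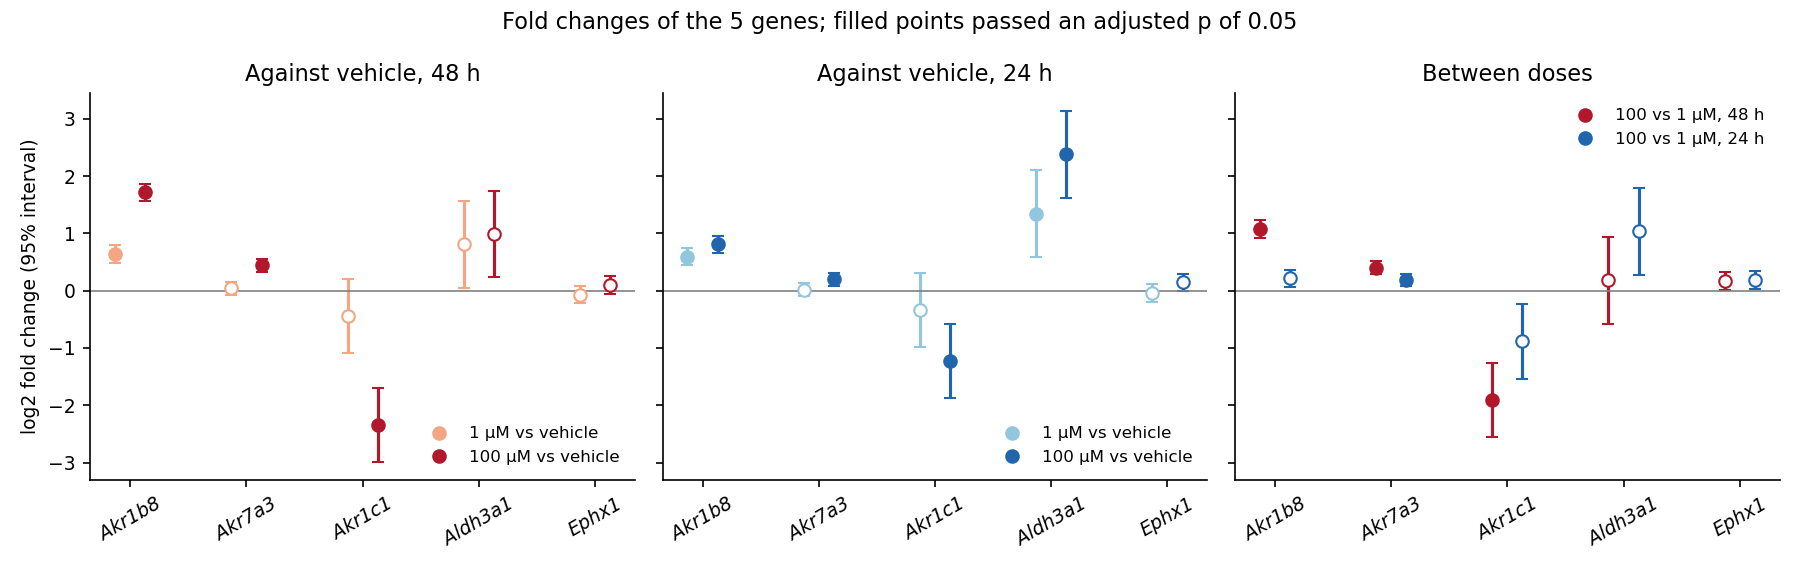
Log2 fold change (y axis) with 95% interval for each of the 5 genes, against vehicle at 48 h and 24 h for 1 and 100 µM BNF and between the doses; filled points passed a limma adjusted p of 0.05 and open points did not. Akr1b8 was filled at both doses and times against vehicle (1.72 at 100 µM and 48 h), Akr1c1 lay lowest (-2.35 there), and the Ephx1 intervals stayed near 0.

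Over the whole set, the comparison of 100 with 1 µM at 48 h called 3 of 5 members, where 14.0% of all genes were called, and that at 24 h called 1 of 5 (Akr7a3), where 7.72% were. For scale, Cyp1a1, the AhR target P450, was 5.68-fold higher at 100 µM than in vehicle wells at 48 h (50727 ± 6829, against 9525 ± 4287) and 5.13-fold higher at 24 h (59383 ± 8936, against 11832 ± 3140). Nqo1, a quinone reductase that AhR and NRF2 both regulate, was 1.71-fold higher at 48 h and 1.84-fold higher at 24 h. By mean signal Cyp1a1 and Nqo1 ranked at percentiles 97.7 and 99.2 of all genes. Whether either signal met a ceiling was not tested, so their folds are not a measure for a dim gene such as Aldh3a1.

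The genes next to each aldo-keto reductase member in the GRCr8 annotation were then compared, as paralogs lie side by side. Akr1b8 lies in a run of 4 Akr1b genes, and Akr1b1 (aldose reductase), Akr1b10 and Akr1b7 were called at neither time at 100 µM, with log2 values of 0.20, -0.04 and -0.28 at 48 h and -0.06, 0.12 and -0.47 at 24 h (limma adjusted p from 0.421 to 0.936). These genes were dimmer, at percentiles 45.4, 37.3 and 0.38 of all genes by mean signal, against 93.6 for Akr1b8. The group means of Akr1b7 lay between 6.979 and 14.3, so its lack of a call says little about a response. Akr7a2, the only neighbour of Akr7a3, had a log2 fold change of -0.06 at 48 h (limma adjusted p = 0.82) and fell by 0.42 at 24 h (limma adjusted p = 0.0145), where Akr7a3 rose. The difference between neighbours was not tested in either run.

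Akr1c1 lies in a run of 11 genes with Akr1e2 and the other Akr1c genes, of which 8 had a probe set of their own. AKR1C3l1, which overlaps Akr1c1, fell by 2.58 on the log2 scale at 100 µM and 48 h (limma adjusted p = 1.57e-05), with a mean of 67.63 ± 49.38, against 290 ± 63.27 in vehicle wells, and had a value of -0.87 at 24 h (limma adjusted p = 0.14). Without replicate 1 its value at 48 h was -2.90. Akr1c14, a 3-alpha-hydroxysteroid dehydrogenase of rat liver, fell to 14685 ± 1638 at 100 µM and 48 h, against 28436 ± 2032 in vehicle wells (log2 -0.96, limma adjusted p = 1.49e-11), and by 0.23 at 24 h (limma adjusted p = 0.0227). Its effect was larger at 48 h by -0.73 (limma adjusted p = 8.83e-05). Akr1e2 fell by 0.66 at 48 h (limma adjusted p = 7.18e-09) and by 0.22 at 24 h (limma adjusted p = 0.0173). Akr1c19 fell by 0.31 at 48 h and by 0.42 at 24 h, while Akr1c13 fell by 0.15 at 24 h and had -0.09 at 48 h (limma adjusted p = 0.223). Akr1c3 was called at neither time. Akr1c15 rose by 1.53 at 48 h (130.8 ± 51.44, against 43.02 ± 14.89 in vehicle wells, limma adjusted p = 0.0149), at low signal, and had -1.09 at 24 h (limma adjusted p = 0.0886).

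**Figure D3:**
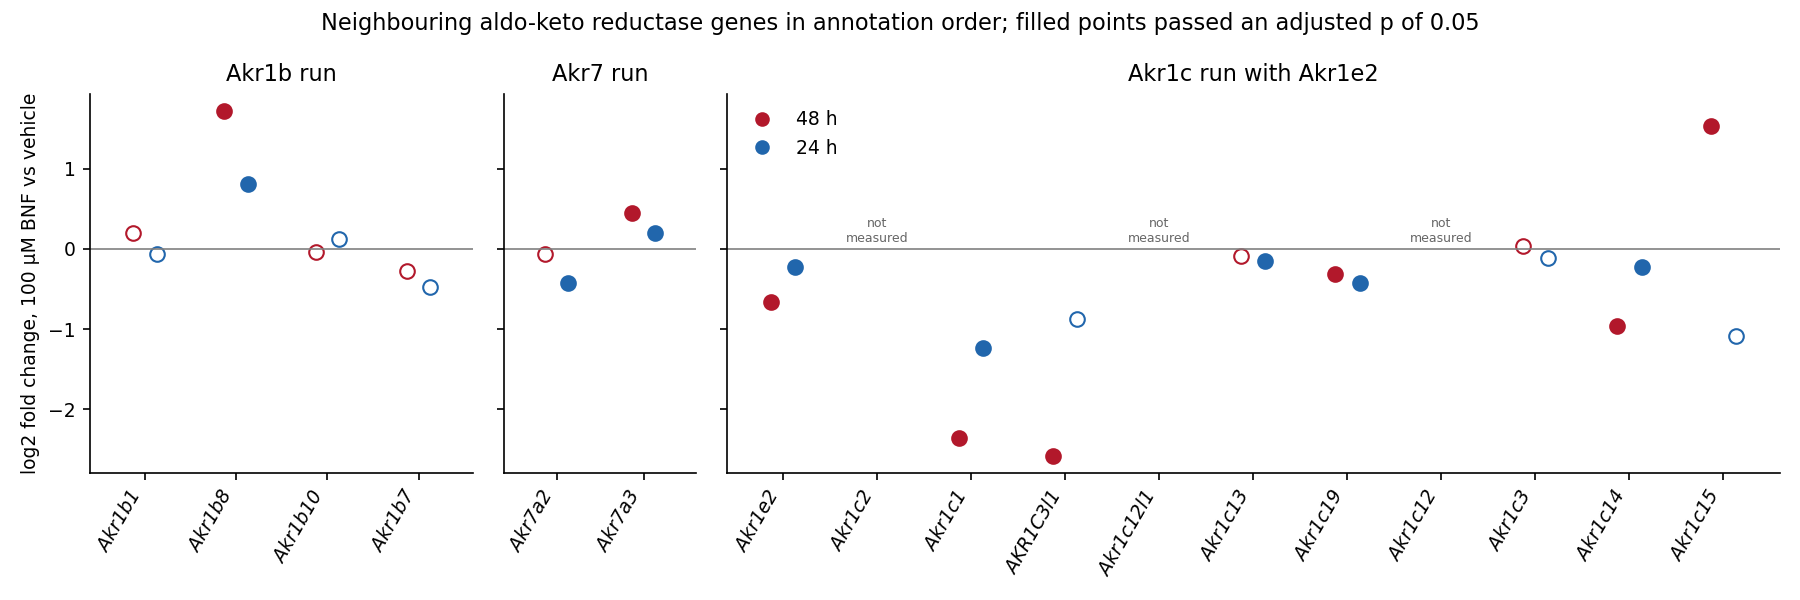
Log2 fold change (y axis) of 100 µM BNF against vehicle for the aldo-keto reductase genes in annotation order along their runs, with 48 h in red left of 24 h in blue; filled points passed a limma adjusted p of 0.05, and 3 genes without a probe set of their own are marked not measured. In the Akr1b run Akr1b8 was the filled gene, and its neighbours were dimmer. In the Akr1c run Akr1c1 and AKR1C3l1 lay lowest at 48 h (-2.35 and -2.58).

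The members were set beside lists of related enzymes. At 100 µM, 8.79% of all genes were higher and 8.62% lower at 48 h, and 10.7% and 10.4% at 24 h. Of 14 other aldo-keto reductases measured, 1 was higher (Akr1c15) and 4 were lower at 100 µM and 48 h, and 0 were higher and 6 lower at 24 h. Their median log2 fold change was -0.08 at 48 h and -0.19 at 24 h, where the median over all genes was 0.02 and 0.04. When each array was centred on its median, 3 rather than 6 were lower at 24 h. Akr1d1, which reduces the double bond of bile acid precursors and steroids, fell by 0.79 at 48 h (limma adjusted p = 6.39e-05) and by 0.62 at 24 h (limma adjusted p = 0.00107). At 1 µM, 0 of the 14 were called at either time.

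Aldh3a1 rose at 100 µM and 24 h while 8 of the 16 other aldehyde dehydrogenases measured were lower and 0 were higher. Their median log2 fold change was -0.23. Among those that fell, Aldh1a1, the cytosolic retinal dehydrogenase, fell by 0.80 (limma adjusted p = 7.71e-07), Aldh6a1, of valine breakdown, by 0.72, Aldh3a2, the fatty aldehyde dehydrogenase, by 0.40, and Aldh2, the mitochondrial acetaldehyde dehydrogenase, by 0.36. With median centring or quantile normalization 1 of the 16 was higher and 8 were lower. At 48 h, 4 were lower and 1 higher (Aldh1l1, a folate enzyme, by 0.27), with a median of -0.05, and Aldh1a1 again fell by 0.80 (limma adjusted p = 8.03e-07). At 1 µM, 0 were called at 48 h. At 24 h 6 were lower and 0 higher, where 2.40% and 1.91% of all genes were. The number lower was 5 with median centring or quantile normalization and 7 without genes below the median signal. Aldh3a1 itself was called higher there, a call that several single wells could remove.

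Ephx1 was measured beside 3 other epoxide hydrolases, of which Ephx2, the soluble enzyme that acts on fatty acid epoxides, was lower at 100 µM, by 0.48 at 48 h (limma adjusted p = 8.3e-07) and by 0.71 at 24 h (limma adjusted p = 6.29e-10). At the lower dose Ephx2 fell by 0.29 at 24 h (limma adjusted p = 0.00537), and Ephx1 did not pass there. Of 13 carbonyl reductases and related short-chain dehydrogenases, 3 were higher and 6 lower at 100 µM and 48 h, and 2 higher and 5 lower at 24 h. Cbr1, the cytosolic carbonyl reductase, was 1 of those that rose, by 0.41 at 48 h (limma adjusted p = 8.38e-09) and by 0.24 at 24 h (limma adjusted p = 6.38e-05). Rdh16, a retinol dehydrogenase, fell by 1.44 at 48 h and by 0.90 at 24 h. Of 7 alcohol dehydrogenases and aldehyde oxidases, 0 were higher and 1 lower at 48 h, and 1 higher and 4 lower at 24 h, Aox1 (aldehyde oxidase) falling by 0.39 (limma adjusted p = 0.0098). The higher gene at 24 h, Adh6a, lay just inside the threshold (limma adjusted p = 0.0498). With quantile normalization 0 of the 7 were higher and 4 lower at 24 h, and 0 were called at 48 h.

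For each member the 3 genes of most like profile over the 30 arrays were taken from 7109 genes at or above the median signal, by Pearson correlation of log2 signals. The points share the groups, the arrays and their scaling, so the correlations are descriptions. Akr1b8 was most like Surf1 (r = 0.904), Atp5if1 (0.894) and Smim13 (0.875), and Akr7a3 most like Gsta4, a glutathione transferase that acts on lipid aldehydes (0.888), Serinc3 (0.883) and Slc17a1 (0.876). Gsta4 rose by 0.84 at 100 µM and 48 h (limma adjusted p = 1.68e-08) and by 0.42 at 24 h (limma adjusted p = 0.000799). Akr1c1 was most like Tgfbi (0.940), Ftcd (0.926) and its neighbour Akr1e2 (0.926), and Ftcd, an enzyme of histidine breakdown, fell by 2.83 at 48 h and by 1.91 at 24 h. Aldh3a1 was most like Srd5a3 (0.789), Ceacam1 (0.771) and Tk2 (0.755), with weaker likeness than the others. Ephx1 was most like Rab5if (0.843), Zbtb8os (0.841) and Zwint (0.840).

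Some markers of the culture were called in these comparisons. Over all genes, 8.79% were higher and 8.62% lower at 100 µM and 48 h, and 10.7% and 10.4% at 24 h. Of the 9 hepatocyte markers, 6 were lower and 0 higher at 100 µM and 48 h, Cps1, of the urea cycle, by 1.08 (limma adjusted p = 1.17e-11), and 4 were lower and 0 higher at 24 h. Their summed signal ranged from 282971 to 350296 over the 100 µM wells at 48 h, against 371175 to 444773 over the vehicle wells. At 24 h it ranged from 365441 to 475674 at 100 µM, against 425697 to 484214 in vehicle wells. Of the 49 markers of other cell types, 0 were higher and 6 lower at 100 µM and 48 h, and 1 was higher and 3 lower at 24 h, and none was at 0. At 1 µM, 2 hepatocyte markers and 1 marker of another cell type were lower at 24 h, where 2.40% of all genes were. At 48 h, 0 of either kind were called at that dose. Summed Kupffer cell and macrophage markers ranged from 16247 to 17395 at 100 µM and 48 h, against 19475 to 21819 in vehicle wells, and from 26828 to 30598 at 100 µM and 24 h, against 23460 to 27619 in vehicle wells. Of these 12 markers only Lyz2 and Cd14 were called at 48 h, both lower, and only Cd14 at 24 h, higher. These 2 were the brightest of the list, with geometric mean signals of 3986 and 12262, so the sums follow them. The part of the marker changes in those of Akr1b8, Akr7a3, Akr1c1 and Aldh3a1 was not tested.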

How the data were processed

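The study's deposited table gives linear signal intensity per probe set for 30 rat arrays, made, per the submitters' processing notes, with MAS5; the version is not given in the sources used here. Trimmed means (2% at each end) lay between 1500.5 and 1500.6, so arrays had been scaled alike before deposit, which hides any shift common to most genes. Detection and saturation flags were not used here.

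Of 31099 probe sets, 57 controls were left out; the platform annotation gave 20826 1 symbol, 436 several and 9780 none. Genes (14217) were represented by their single-symbol probe set of highest mean log2 signal, and 14167 were matched to the reference names by gene number. Log2 intensities, with no constant, were fitted in limma 3.58.1 (R 4.3.3) with 1 mean per group (24 residual degrees of freedom), eBayes with a trend and 9 contrasts. Code was tested on simulated data. Python 3.11.15, pandas 2.3.3 and matplotlib 3.10.9 were used for summaries. Fold changes are 2 to the power of the log2 difference.

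The members and gene lists were chosen with earlier results of these data known. Named genes are the members, up to 6 called genes of each list, annotation neighbours and the 3 most alike genes; the neighbour runs and the removal of 100 µM 48 h replicate 1 from every comparison and a replicate block were added after values were seen. No array pair was identical (0). Array number limits precision. Alternatives covered normalization, a constant of 50, dim genes, the spread model, the arrays and features fitted, and single wells left out.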

Additional observations from a re-analysis of the deposited data

Results flagged for a closer look

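Replicate 1 of 100 µM BNF at 48 h was the lowest of its 5 wells for 3 members, by a gap that was large beside the range of the group. It read 36182 for Akr7a3, where the other 4 wells lay between 44022 and 44948. It read 42.39 for Akr1c1, where the others lay between 240.5 and 358.1, and 51172 for Ephx1, where the others lay between 62758 and 67536. The gap was 0.904, 0.814 and 0.736 of the group's range, above Dixon's 95% critical value of 0.71 for 5 samples. Chance gives about 1 such group in 20, and 30 groups of members were examined. The same array was also lowest for Cyp1a1 (38665) and Nqo1 (43654), while for Akr1b8 (23569) it was in the middle of its group and for Aldh3a1 (333.5) the highest. Over genes at or above the median signal, its mean absolute log2 difference from the median of the other wells of its group was 0.148. This was the highest of its group, where the others lay between 0.105 and 0.135, and the second highest of the 30 arrays, below 0.154. The cause was not tested.

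The effect of 100 µM BNF on Akr1b8 differed between the times by 0.91 on the log2 scale, 48 h minus 24 h (limma adjusted p = 3.79e-06). All 5 wells at 48 h lay above all 5 at 24 h at this dose, while all 5 vehicle wells at 48 h lay below all 5 at 24 h.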

How the results depend on the processing

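No called fold change of a member reversed. Of 297 fold changes of the members under other planned settings, 272 kept direction and side of the threshold, 2 lost the call, 17 gained one and 6 changed sign; of 580 with 1 well left out, 550 kept both, 12 lost, 5 gained and 13 changed sign. Those that changed sign were called neither as reported nor under the setting that turned them. With median centring Akr7a3 had -0.0025 at 1 µM and 24 h, -0.0082 at 1 µM and 48 h and -0.0057 for the 1 µM time difference. With quantile normalization Ephx1 had 0.0458 at 1 µM and 48 h, and 0.0588 and 0.0547 for the 1 and 100 µM time differences. Without single wells Akr7a3 at 1 µM and 24 h ran from -0.0029 to 0.0522 and Aldh3a1 in vehicle wells, 48 against 24 h, from -0.1532 to 0.5295. The 1 µM time difference ran from -0.0334 to 0.0986 for Akr1b8, -0.0112 to 0.0526 for Akr7a3 and -0.0756 to 0.0255 for Ephx1, and that at 100 µM from -0.0920 to 0.0285 for Ephx1. Calls among the 5 members at 1 µM and 24 h numbered 2, against 1 without genes below the median signal, which removes Akr1c1 and Aldh3a1, and 1 to 2 with 1 well left out; with only those groups it stayed at 2, with Akr1c1 in place of Aldh3a1. At 100 µM and 24 h there were 4, against 2 without those genes. At 100 µM and 48 h there were 3, against 5 with quantile normalization, and 3 to 4 with 1 well left out. Between doses at 24 h there was 1, against 2 with quantile normalization, 3 with log2(signal + 50), 2 without dim genes, 0 without the trend, 4 with only the groups compared, 0 to 2 with 1 well left out; at 48 h there were 3, against 2 to 4 under other settings and 3 to 4 with 1 well left out. Vehicle at 48 against 24 h gave 1, against 3 with quantile normalization and 2 with only those groups, and 1 to 2 with 1 well left out, and the 100 µM time difference 1, against 2 with quantile normalization and 1 to 2 with 1 well left out. The cause was not tested beyond what these settings remove. Akr1b8 kept all its calls against vehicle under every setting run.

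Over all genes, 612 calls at 1 µM and 24 h became 406 without 1 µM replicate 3. At 1 µM and 48 h 115 became 30 with only those groups and 46 to 153 without single wells. For the 1 µM time difference 13 became 0 with centring, 20 with quantile normalization, 4 without the trend, 5 with only those groups, and 2 to 22 without single wells. For the 100 µM time difference 112 became 174 without dim genes. With median centring the share of calls that were higher moved to 32.6%, against 44.3% as deposited, at 1 µM and 24 h, to 16.2%, against 35.7%, at 1 µM and 48 h, and to 71.7%, against 47.1%, between doses at 48 h.

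Each member has 1 probe set, and the setting with another one was not run. A fit with a replicate block was added after seeing the data: the array numbers in the labels fall into 5 runs of 6, each with 1 well of every group, and the labels do not say that a run was a batch. Same-numbered wells of different groups had a median correlation of 0.01 in their deviations from the group means (75 pairs, -0.04 to 0.11), and 9 of 30 arrays correlated best with their own number. The block left fold changes as they were and moved 1 count among the members, between doses at 24 h, to 2, against 1 without the block, by adding Akr1b8 (adjusted p = 0.0417); over all genes no count moved by over 1.5 times.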
